A study of Mus musculus with 2 samples.

Results

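Oxytocin (*Oxt*) and arginine-vasopressin (*Avp*), the neurohormone genes of the neurohypophysis (NH), were followed through every droplet of a single-cell RNA sequencing (scRNA-Seq) study of the mouse NH. They were taken by their symbols, as 2 of the 27998 genes of the count matrices. The tissue came from C57BL/6 male mice of 3 months of age, with 5 NH dissected and pooled per library and 2 such pools, so that n = 2 throughout and no treatment was compared. The mice were unmanipulated, and no transgene or sorting was used. As a model of hormone expression the tissue was limited in that each library mixed 5 animals, that the dissection left residual intermediate lobe (IL) tissue, and that the neurons which transcribe *Oxt* and *Avp* have their cell bodies in the hypothalamus, outside the tissue taken.

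Both hormones are made by magnocellular neurons, whose axons run down the pituitary stalk and end in the NH on permeable capillaries. Each precursor holds the short hormone at its front, followed by a neurophysin that carries it through the secretory granules, and that of vasopressin has a further glycopeptide, copeptin. mRNA of both genes is known to travel into these axons. Pituicytes, the resident astroglia of the NH, enwrap the axons and their endings, whereas *Pomc*, the precursor of melanocyte-stimulating hormone, marks the endocrine cells of the IL.

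The genes are neighbours on chromosome 2 and are transcribed toward each other. In the GENCODE M21 annotation of the mm10 assembly, *Oxt* (ENSMUSG00000027301) lies on the plus strand at chr2:130576173-130577054 and *Avp* (ENSMUSG00000037727) on the minus strand at chr2:130580620-130582554, with 3565 bases between them. Both have 3 exons. Their second exon, coding in full and holding most of the neurophysin, is shown because it decides whether a read can be assigned. The lines give exon 2 of *Oxt* (chr2:130576591-130576792) and of *Avp* (chr2:130581056-130581257, minus strand), 5′ to 3′, with capitals at the bases that differ.
Oxt: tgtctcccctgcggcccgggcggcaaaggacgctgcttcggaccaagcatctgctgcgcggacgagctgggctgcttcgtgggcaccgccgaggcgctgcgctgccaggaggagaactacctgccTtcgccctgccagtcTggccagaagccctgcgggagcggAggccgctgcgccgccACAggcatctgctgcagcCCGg
Avp: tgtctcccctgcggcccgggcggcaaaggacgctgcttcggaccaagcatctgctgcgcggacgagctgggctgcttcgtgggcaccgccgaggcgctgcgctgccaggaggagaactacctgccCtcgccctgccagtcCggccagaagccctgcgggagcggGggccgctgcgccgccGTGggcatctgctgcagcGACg

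The exons differed at 9 of 202 bases (95.5% identity), and their first 125 bases were identical. The cDNA reads of the study were 58 bases long. A window of that length placed in this stretch, or starting just before it where the bases also match, could not be told apart. This held for 70 of the 480 windows of the *Oxt* transcript (14.6%) and for 70 of the 520 of *Avp* (13.5%). The last exon, next to the poly(A) tail where these libraries were primed, carries the part in which the genes differ. Its coding part, with the stop codon at the end, is shown in lower case with no base marked.
Oxt: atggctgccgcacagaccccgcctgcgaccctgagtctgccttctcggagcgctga
Avp: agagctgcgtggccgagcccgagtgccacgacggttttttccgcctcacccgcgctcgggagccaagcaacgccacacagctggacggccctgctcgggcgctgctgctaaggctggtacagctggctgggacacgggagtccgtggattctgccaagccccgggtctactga

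The stretch of *Oxt* has 56 bases (chr2:130576877-130576932) and that of *Avp* 173 (chr2:130580677-130580849, minus strand), in which copeptin is encoded. After the last shared window 255 bases of the *Oxt* transcript and 307 of the *Avp* transcript remained, so that reads from this 3′ part would be assignable to 1 of them. The positions of the reads were not examined. The longest run of A was 16 bases in the last exon of *Oxt* and 5 in the *Avp* transcript, and its effect on the counts was not tested. The 2 transcripts were of similar length, 537 and 577 bases. Their levels are given in unique molecular identifiers (UMIs), which count each captured mRNA molecule once and do not scale with length.

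The limits of the study, 1000 to 10000 UMIs and 400 to 5000 genes per cell with less than 25% of UMIs from mitochondrial genes, kept 273 cells in pool 1 (699676 UMIs) and 255 in pool 2 (726706 UMIs). No kept barcode was shared by the pools. Each kept cell was given the cluster of the authors that the deposited cluster means fixed for it, and the assignment was the same for all 528 cells when *Oxt* and *Avp* were left out. The 11 clusters form 7 cell types: 196 pituicytes, 148 IL cells, 95 macrophage/microglia, 42 T-cell like cells, 23 epithelial-like cells, 13 vascular endothelia and 11 vascular and leptomeningeal cells (VLMC). All 8 pituicyte markers examined were higher in pituicytes than in the mean of the other types, beside 20.8% of all genes tested. The paper picked these markers from the same cells or used them to define the cluster, so their level is no independent check of it. The clusters labelled neural progenitor a and b in the deposited means were taken here as the IL cells of the paper. Their deposited *Pomc* means were 1043 and 955 UMIs per 10000 of a cell. None of the 7 types was named as neurons, and *Rbfox3*, which marks neuronal nuclei, had 1 UMI in pituicytes and 94 in IL cells.

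UMIs of *Oxt* were found in kept cells of all 7 types, at different levels. In pituicytes *Oxt* was at 530 counts per 1000000 UMIs (CPM) in pool 1 (125 UMIs in 108 cells) and at 544 CPM in pool 2 (138 UMIs in 88 cells), a mean of 537 ± 9.89 CPM (SD, n = 2). In IL cells it was at 99.5 and 84.2 CPM, and in macrophage/microglia at 90.2 and 130 CPM. Pituicytes thus lay above both of these types in each pool, and the exact 95% Poisson intervals of pituicytes, 441 to 632 CPM in pool 1 and 457 to 643 CPM in pool 2, did not reach those of either.

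The smaller types had few *Oxt* UMIs. T-cell like cells were at 54.6 and 68.8 CPM (3 and 2 UMIs), and epithelial-like cells at 207 and 152 CPM (4 and 9 UMIs). In vascular endothelia, the fenestrated capillary cells beside the hormone axons, the levels were 176 and 641 CPM (2 and 8 UMIs in 6 and 7 cells). The VLMC, fibroblast-like cells of the vessels and coverings, were the most uneven: none of 8491 UMIs in 5 cells of pool 1, which allows up to 353 CPM, against 1192 CPM in 6 cells of pool 2. Of these 18 UMIs of *Oxt* 14 were in 1 cell, and without it the level was 437 CPM.

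*Avp* had fewer UMIs than *Oxt* in 13 of the 14 sums of a type and pool, and VLMC of pool 1 held none of either. In pituicytes it was at 110 CPM in pool 1 (26 UMIs) and at 67.1 CPM in pool 2 (17 UMIs), a mean of 88.7 ± 30.6 CPM (SD, n = 2). In IL cells it was at 28.4 and 12.02 CPM (8 and 3 UMIs). In macrophage/microglia it was at 11.3 and 18.5 CPM (1 and 2 UMIs), and both types lay below pituicytes in both pools. No sum of the other types held more than 5 UMIs of *Avp*.

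Among the small types, vascular endothelia were at 88.1 and 320 CPM of *Avp* (1 and 4 UMIs) and VLMC at 0 and 331 CPM, where all 5 UMIs were in the cell that held 14 of *Oxt*. T-cell like cells were at 18.2 and 34.4 CPM (1 UMI in each pool). Epithelial-like cells were at 51.8 CPM in pool 1 (1 UMI) and had no *Avp* UMI in pool 2, which allows up to 50.8 CPM.

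By the mean of the pools the order of the *Oxt* levels was VLMC (596 ± 843 CPM), pituicytes (537 ± 9.89), vascular endothelia (408 ± 328), epithelial-like cells (180 ± 38.7), macrophage/microglia (110 ± 27.9), IL cells (91.9 ± 10.9) and T-cell like cells (61.7 ± 10.0), each with the SD of n = 2. The values of the pools overlapped between all neighbours in this order other than epithelial-like cells against macrophage/microglia and IL against T-cell like cells, and for these the counting intervals overlapped. The order of *Avp* was vascular endothelia (204 ± 164 CPM), VLMC (166 ± 234), pituicytes (88.7 ± 30.6), T-cell like (26.3 ± 11.4), epithelial-like (25.9 ± 36.6) and IL cells (20.2 ± 11.6) and macrophage/microglia (14.9 ± 5.13). Its only neighbours whose pool values did not overlap were pituicytes and T-cell like cells, and there too the counting intervals overlapped. The place of VLMC and vascular endothelia in both orders was thus not resolved by these 24 cells.

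**Figure D1:**
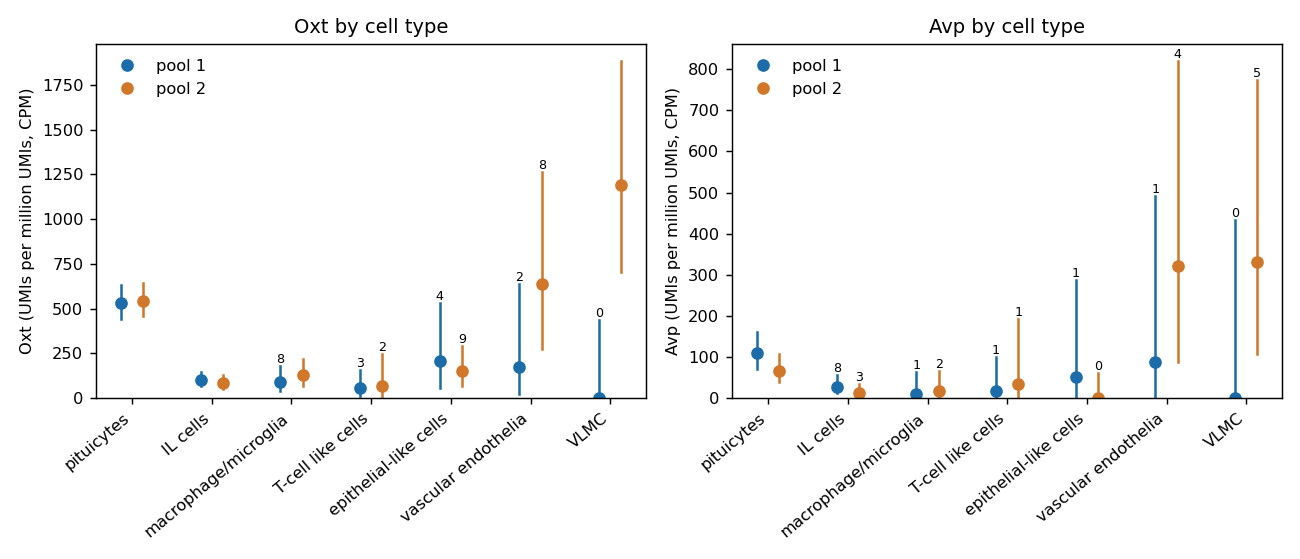
Level of *Oxt* (left) and *Avp* (right) in UMIs per 1000000 UMIs (CPM) by cell type, with blue points for pool 1 and orange points for pool 2 and bars for the exact 95% Poisson interval, which covers counting error only. Numbers above the bars are the UMIs of the gene where there were under 10. Pituicytes sit at 530 and 544 CPM of *Oxt*, above IL cells and macrophage/microglia in both pools, and the bars of vascular endothelia and VLMC are the widest.

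Whether these differences exceeded a spread between the pools shared over all genes was tested on the UMI counts summed per pool and type. This used edgeR's quasi-likelihood test over the 4510 genes that passed the filter on low counts, both hormone genes among them. The p-values rest little on the spread of *Oxt* or *Avp* itself, such as 0 and 1192 CPM of *Oxt* in VLMC. Both hormone genes varied among the 7 types (adjusted p = 1.85e-13 for *Oxt* and 0.00191 for *Avp*), as did 54.5% of the genes tested. *Oxt* was 3.65-fold higher in pituicytes than in the mean of the other 6 types (log2 fold change 1.87, SE 0.27, adjusted p = 2.58e-10). *Avp* was 2.58-fold higher (log2 fold change 1.37, SE 0.49, adjusted p = 0.0266). The contrast averages log levels over these 6 types, so types near 0 weigh as much as the others. In mean CPM, VLMC (596) lay above pituicytes (537) for *Oxt*. For *Avp*, vascular endothelia (204) and VLMC (166) lay above pituicytes (88.7), on few UMIs. In this comparison 20.8% of all genes were called higher and 1.37% lower, and the median log2 fold change of all genes was 0.59, so that both hormone genes lay above that median, at ranks 684 and 1121 of the genes by fold.

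Against IL cells alone, which held the most UMIs, *Oxt* was 5.35-fold higher in pituicytes (log2 fold change 2.42, SE 0.36, adjusted p = 5.84e-10) and *Avp* 3.81-fold (1.93, SE 0.58, adjusted p = 0.00569). Here 11.7% of the genes were called higher and 8.94% lower, and the median of all genes was 0.01. Against macrophage/microglia, blood-derived and resident phagocytes in which neither hormone gene is known to be transcribed, *Oxt* was 4.16-fold higher (2.06, SE 0.42, adjusted p = 7.17e-06) and *Avp* 4.78-fold (2.26, SE 0.83, adjusted p = 0.0241). In this comparison 14.7% of the genes were called higher and 16% lower, and macrophage/microglia held 3 *Avp* UMIs over both pools. The fold changes of *Oxt* and *Avp* differed by less than the sum of their SEs in all 3 contrasts.

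These calls depended on the tool and on the mitochondrial limit. With DESeq2 in place of edgeR none of the 3 contrasts passed for either gene, with adjusted p between 0.0602 and 0.104 for *Oxt* and between 0.212 and 0.526 for *Avp*. With a mitochondrial limit of 10% *Oxt* in pituicytes against the other 6 types missed the threshold (adjusted p = 0.0528) and *Avp* missed it in all 3 contrasts (adjusted p = 0.823, 0.579 and 0.713). *Avp* also missed it against the other types with library size alone as the scaling (adjusted p = 0.122), against IL cells once the cells were clustered again, which kept 76 of the 148 IL cells as such and left 109 of all 528 cells unnamed (0.483), and against macrophage/microglia without the cell of each type and pool with most hormone UMIs (0.0970). Without pool 2, in which VLMC and vascular endothelia held most of their hormone UMIs, the log2 fold changes against the other types were 3.51 for *Oxt* and 2.78 for *Avp*, with no test. Both values average in VLMC of pool 1, which held no UMI of either gene, so their size is uncertain.

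The share of cells with a UMI was also larger in pituicytes than in IL cells and immune cells. Before thinning, *Oxt* was detected in 47.2% of pituicytes of pool 1 and 45.5% of pool 2, against 28.8% and 26.5% of IL cells and 14.9% and 18.6% of macrophage/microglia and T-cell like cells as 1 set. Median depths differed, with 1869 and 2457 UMIs in pituicytes and 3143.5 and 3276.5 in IL cells. After each cell was thinned to 1000 UMIs, pituicytes were at 31.5% and 23.9%, IL cells at 11.3% and 5.88% and the immune cells at 7.46% and 4.29%.

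For *Avp* the shares were 15.7% and 14.8% of pituicytes before thinning and 11.1% and 6.82% after it. The immune cells, as types that should lack the gene, were at 2.99% and 4.29% before it and at 0% (0 of 67 cells, which allows up to 4.48%) and 2.86% after it. The thinned shares of pituicytes lay above those of the immune cells in both pools for both genes, although for *Avp* in pool 2 the intervals overlapped (2.54 to 14.3% and 0.348 to 9.94%). IL cells lay below pituicytes although they were deeper, and their thinned *Oxt* shares were within the 95% Clopper-Pearson intervals of the immune cells (2.47 to 16.6% in pool 1 and 0.893 to 12.02% in pool 2).

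The count per cell was also split by depth in pituicytes and IL cells. Pituicytes with over 2000 UMIs held 1.59 and 1.95 *Oxt* UMIs per cell, against 0.839 and 0.833 in those with at most 2000. In IL cells the counts were 0.318 and 0.309 in the deeper cells and 0.5 and 0.308 in the shallower cells. In pituicytes the level was nearly the same in deep and shallow cells, at 493 and 542 against 593 and 557 CPM, whereas in IL cells it was lower in deep cells, at 80.0 and 73.5 against 371 and 218 CPM. These differences were not tested, since cells are not replicates, and the shallow IL cells numbered only 14 and 13, with 7 and 4 *Oxt* UMIs. The counting intervals of shallow and deep IL cells overlapped in pool 2 (59.4 to 558 and 42.8 to 118 CPM). In pool 1 they did not (149 to 765 and 49.5 to 122 CPM). For *Avp* the shallow IL cells had no UMI in either pool, and the deep IL cells were at 30.5 and 13.0 CPM (8 and 3 UMIs). In pituicytes *Avp* was at 81.1 and 71.9 CPM in deep cells against 160 and 44.6 CPM in shallow cells. The depth pattern described for *Oxt* was thus not seen for *Avp*, on few UMIs.

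The authors split pituicytes in 3 clusters, and the deposited means of *Oxt*, in UMIs per 10000 of a cell, were 3.25 in pituicytes a, 6.26 in pituicytes b and 6.75 in pituicytes c, with 0.539, 0.545 and 2.00 for *Avp*. Summed by pool, *Oxt* was at 420 and 334 CPM in pituicytes a, at 560 and 760 CPM in pituicytes b and at 585 and 924 CPM in pituicytes c. Pituicytes a were thus lowest in both pools, and b and c overlapped. *Avp* was at 57.9 and 39.3 CPM in a, 17.0 and 78.6 CPM in b and 195 and 127 CPM in c, so that c was highest in both pools, with 29 of the 43 *Avp* UMIs of pituicytes.

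None of these differences passed a test over the 2764 genes measured in the 3 clusters. The adjusted p among the clusters was 0.886 for *Oxt* and 0.283 for *Avp* (unadjusted p from the edgeR fit 0.0139 and 0.00123), and 0.181% of all genes (5) passed. In the contrasts of 1 cluster against the mean of the others 0.0724% of the genes were lower in a, 0.0724% higher in b, and 0.109% higher and 0.0362% lower in c, with 0 in the other directions. The largest contrast of the hormone genes was *Avp* in pituicytes c against the mean of a and b (log2 fold change 1.98, SE 0.52, adjusted p = 0.200), ninth by fold among all genes. *Oxt* in pituicytes a was at a log2 difference of -0.99 (SE 0.34, adjusted p = 0.562). The clusters differed in other measures at the same time: pituicytes c had median mitochondrial shares of 21.3% and 18.0%, against 11.4% and 9.09% in a, and pituicytes b held 13849 and 19309 CPM of *Pomc* against 376 and 269 in a. Of these UMIs of pituicytes b 781 of 816 in pool 1 and 636 of 737 in pool 2 lay in a single cell each, without which the level was 642 and 3243 CPM. Their part in the *Oxt* and *Avp* levels was not tested.

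**Figure D2:**
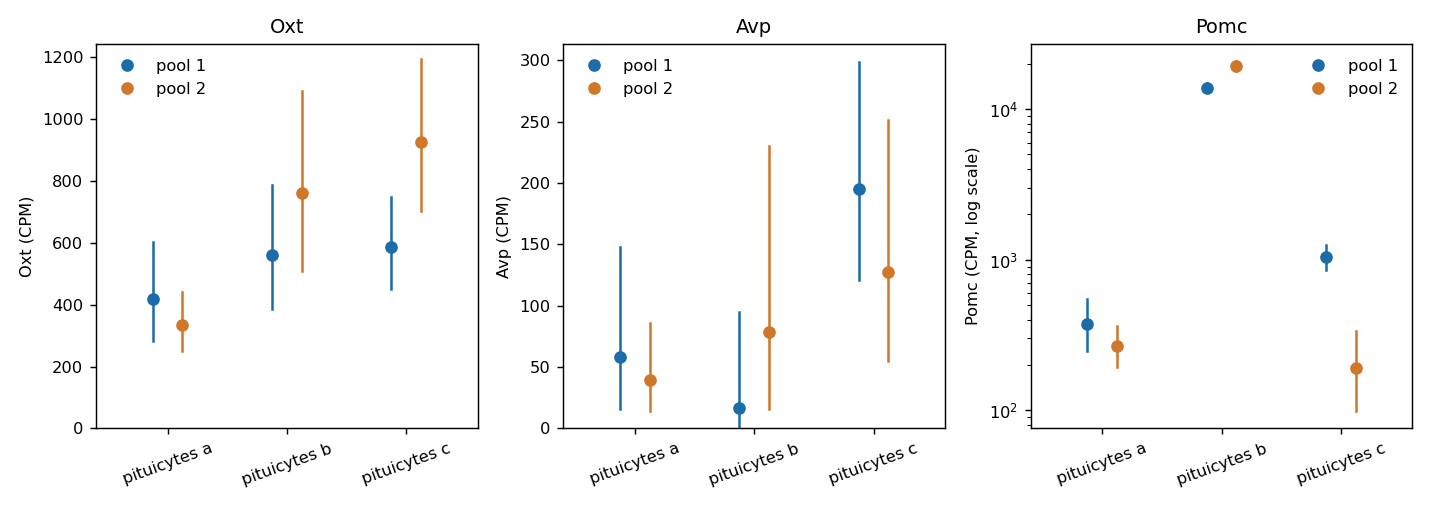
Level of *Oxt*, *Avp* and, on a log scale, *Pomc* (CPM) in the 3 pituicyte clusters, with blue points for pool 1, orange points for pool 2 and bars for exact 95% Poisson intervals. *Oxt* is lowest in pituicytes a and *Avp* highest in pituicytes c in both pools, and the *Pomc* level of pituicytes b is carried by 1 cell in each pool (781 of 816 and 636 of 737 UMIs).

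Within 3 types the level was also split by the mitochondrial share of the cell. Pituicytes with a share of at least 10% had 563 and 664 CPM of *Oxt*, against 267 and 407 CPM in those under it. IL cells were at 126 and 108 against 80.3 and 70.2 CPM, and macrophage/microglia at 184 and 312 against 77.1 and 90.2 CPM. The level was thus higher in cells with the larger mitochondrial share in all 3 types and both pools, but the counting intervals overlapped each time. The values of macrophage/microglia above the limit rest on 2 and 6 UMIs. Of the pituicytes under the limit 10 of 11 and 35 of 38 were of cluster a, against 24 of 97 and 18 of 50 above it. The split of pituicytes thus largely repeats that between cluster a and the other clusters. For *Avp* the direction was mixed, at 110 and 111 against 114 and 17.0 CPM in pituicytes. No test was made over cells, and what links the measures was not tested.

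The UMIs were spread unevenly over pituicytes. No *Oxt* UMI was found in 105 of the 196 cells, 43 had 1, 18 had 2, 17 had 3 or 4, and 13 had 5 or more. The highest count was 26, in a cell of pituicytes c of pool 2 with 5912 UMIs in all and no *Pomc* UMI. The 10 cells with most *Oxt* held 43.0% of its UMIs. *Avp* was not found in 166 pituicytes, 24 had 1 UMI and the highest count was 7, in a cell that also had 7 of *Oxt*.

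Cells with *Avp* often had *Oxt* as well. Of the 91 pituicytes with *Oxt* and the 30 with *Avp* 19 had both, that is 20.9% of the first and 63.3% of the second. *Avp* was detected in 10.48% of the pituicytes without *Oxt*. In macrophage/microglia and T-cell like cells, with 23 cells with *Oxt* and 5 with *Avp*, no cell had both. Deep cells are more likely to have a UMI of any gene, so these shares are a description of cells of unequal depth.

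Most of the hormone mRNA of the libraries lay outside the kept cells. The matrix of pool 1 lists every barcode of the kit, and its 157608 barcodes with 1 to 50 UMIs, too few for a cell, had 11927 *Oxt* UMIs and 2602 *Avp* UMIs. This was 70.3% of all *Oxt* and 71.5% of all *Avp* UMIs of that pool, whereas these barcodes held 42.6% of the UMIs of all genes. The kept cells held 1.002% and 1.044% of the hormone UMIs and 15.7% of all UMIs. *Pomc* was divided otherwise, with 29.3% in these barcodes and 34.2% in the kept cells. Only 203 of these barcodes held 3 or more *Oxt* UMIs, and the most in 1 barcode was 6.

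As a level, *Oxt* was at 6303 CPM (95% interval 6190 to 6417) in the barcodes with 1 to 50 UMIs, thirteenth among all genes, and *Avp* at 1375 CPM (1323 to 1429). In the kept cells of pool 1 they were at 243 and 54.3 CPM. The ratios were 25.9 for *Oxt* and 25.3 for *Avp*, the fifth and sixth largest of the 534 genes with at least 200 UMIs in these barcodes. The genes with larger ratios were the haemoglobin genes *Hbb-bt* (108), *Hba-a1* (60.1), *Hba-a2* (58.1) and *Hbb-bs* (44.3), and the next was *Prl*, the prolactin gene of the anterior lobe (10.96). A ratio of at least 10 was found for 1.31% of the 534 genes (7). That of *Pomc* was 0.317.

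From 11 UMIs on, the level of *Oxt* in pool 1 was lower in deeper classes of barcodes, with the class of 501 to 1000 UMIs as an exception. It was at 6545 CPM in barcodes with 11 to 50 UMIs, 4567 CPM at 51 to 100, 2614 CPM at 101 to 250 and 1632 CPM at 251 to 500. At 501 to 1000 UMIs it was 1739 CPM, of which 1 barcode with 106 *Oxt* UMIs made a part, and 1253 CPM without that barcode. Barcodes with over 1000 UMIs that failed the other limits were at 669 CPM, kept cells at 243 CPM, and the 9 barcodes with 10000 or more UMIs at 35.2 CPM. Barcodes with 1 to 10 UMIs, at 3488 CPM, lay below the next class. *Avp* was lower in each deeper class of pool 1 from 11 UMIs on, from 1423 CPM at 11 to 50 UMIs through 925, 552, 460 and 212 CPM to 54.3 CPM in kept cells.

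Per barcode the direction was the other way. The mean was 0.163 *Oxt* UMIs at 11 to 50 UMIs, 0.311 at 51 to 100, 0.388 at 101 to 250, 0.556 at 251 to 500 and 1.18 at 501 to 1000 UMIs, against 0.623 in kept cells of pool 1. Kept IL cells of that pool had 0.350, fewer than the barcodes with 101 to 250 UMIs, and kept pituicytes had 1.16.

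Pool 2 was deposited with its 1500 largest barcodes, of 221 UMIs or more, so that barcodes with 1 to 50 UMIs could not be examined in it. In the barcodes common to both, those with 251 to 1000 UMIs, *Oxt* was at 1679 CPM in pool 1 and 996 CPM in pool 2, and *Avp* at 352 and 196 CPM. These were 6.91 and 3.45 times the level of the kept cells for *Oxt* (rank 6 of 579 genes and 23 of 481 with at least 50 UMIs) and 6.47 and 4.45 times for *Avp* (ranks 7 and 18). Both genes were thus at a higher level in these barcodes than in the kept cells of either pool, and the ratio was larger in pool 1.

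**Figure D3:**
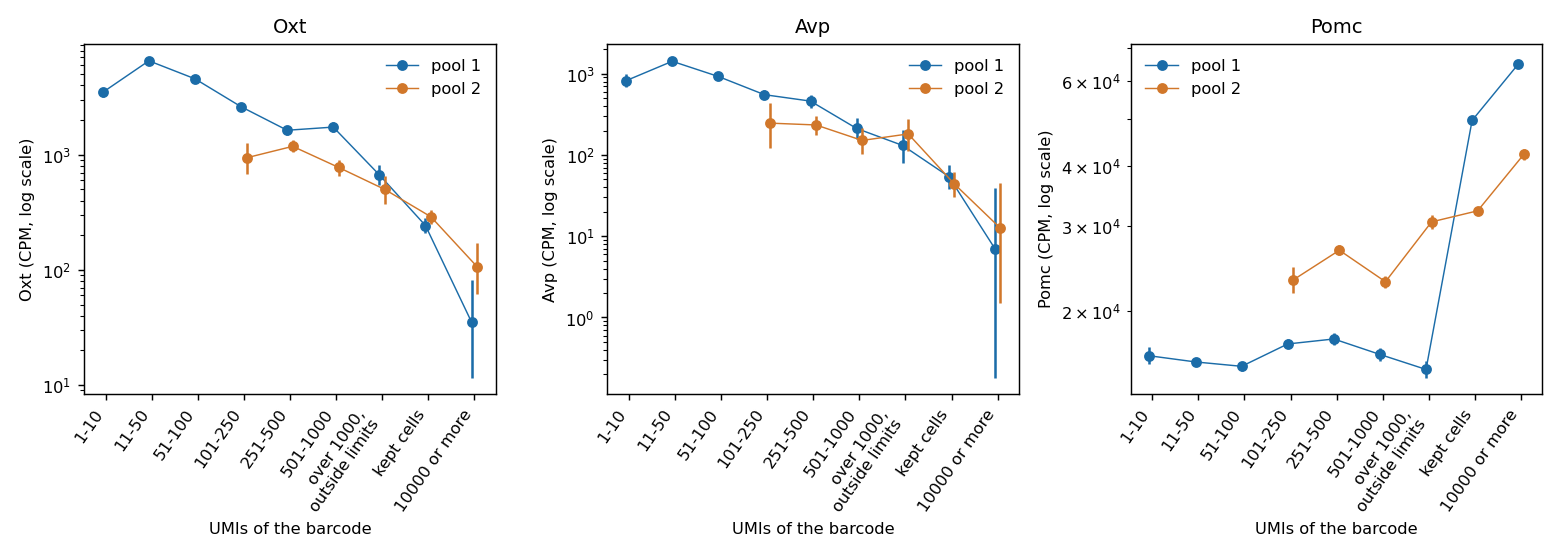
Level of *Oxt*, *Avp* and *Pomc* (CPM, log scales) by the number of UMIs of the barcode, with blue points for pool 1, orange points for pool 2 and bars for exact 95% Poisson intervals. Kept cells passed the limits of the study, and the class of 101 to 250 UMIs starts at 221 in pool 2. *Oxt* and *Avp* are lowest in the deepest barcodes of both pools, whereas *Pomc* is higher in kept cells than in any class of at most 1000 UMIs.

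*Oxt* outnumbered *Avp* in all of these sets. *Oxt* made up 82.1% of the hormone UMIs in the barcodes with 1 to 50 UMIs (95% Clopper-Pearson interval 81.5 to 82.7%), 82.8% and 89.0% in pituicytes of pools 1 and 2, 77.8% and 87.5% in IL cells and 84.6% and 84.2% in the immune cells. The intervals of pool 1 included 82.1% in all 3 sets of cells. In pituicytes of pool 2 the interval was 83.0 to 93.5%, just above it, with no barcodes of 1 to 50 UMIs available from pool 2. In barcodes of 251 to 1000 UMIs the part was 82.7% in pool 1 and 83.6% in pool 2, but within this range of pool 1 it was 78.0% (74.4 to 81.3%) at 251 to 500 UMIs and 89.1% (85.8 to 91.9%) at 501 to 1000, where the barcode with 106 *Oxt* UMIs had no *Avp*. The interval of pituicytes b of pool 1 (97.1%, 84.7 to 99.9%) also lay above 82.1%. In that set 11 of the 33 *Oxt* UMIs lay in 1 cell. The observed proportion thus varied, but the intervals take UMIs as independent, which UMIs gathered in 1 barcode are not. Whether the proportion differed between sets was not tested.

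Relative to *Pomc*, the hormone UMIs did not keep 1 proportion. There were 40.03 *Oxt* UMIs per 100 *Pomc* UMIs in the barcodes with 1 to 50 UMIs, 7.97 and 14.3 in the immune cells and 13.1 and 17.5 in pituicytes, and 0.0834 and 0.0939 in IL cells, which transcribe *Pomc*. Among pituicytes the value was 112 and 124 in cluster a, 4.04 and 3.93 in cluster b and 56.3 and 483 in cluster c. The values of pituicytes rested on the cell with most *Pomc* of each pool. Without it, an alternative added after the data were seen, all pituicytes were at 71.7 and 87.0 and cluster b at 91.4 and 24.8, so that pituicytes turned from below to above the barcodes with 1 to 50 UMIs of pool 1. Clusters a and c lay above those barcodes with and without such a cell, and the immune cells lay below them, at 12.5 and 17.4 without it.

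Barcodes of intermediate size that held several hormone UMIs were then described. Among the 12961 barcodes of pool 1 with 51 to 1000 UMIs 140 had at least 5 UMIs of *Oxt* and *Avp* together. Of these 81 had only *Oxt*, 1 only *Avp* and 58 both, and *Avp* outnumbered *Oxt* in 15. In pool 2, 22 of the 979 barcodes with 251 to 1000 UMIs had at least 5, 9 of them with only *Oxt*, 1 with only *Avp* and 12 with both. The minimum of 5 was chosen after the counts were seen.

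The 107 barcodes of pool 1 with at least 5 *Oxt* UMIs were set beside the 9447 of the same range with neither hormone, with the hormone UMIs left out of the totals. Of the 18 axon and terminal genes of neurons examined, 6 were detected in the *Oxt*-rich barcodes and 12 were at 0. Their summed level was 2036 CPM (51 UMIs) against 411 CPM (461 UMIs). *Stmn2*, a tubulin-binding protein of growing and mature axons, was at 439 against 42.8 CPM, the kinesin heavy chain *Kif5a* at 359 against 36.6 CPM and the neuronal ubiquitin hydrolase *Uchl1* at 319 against 27.7 CPM. The synaptic fusion protein *Snap25* was at 279 against 37.5 CPM, the growth cone protein *Gap43* at 160 against 15.2 CPM and the microtubule-associated protein *Map1b* at 479 against 176 CPM. The vesicle calcium sensor *Syt1* was at 0, which allows up to 120 CPM, against 35.7 CPM.

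Of the 7 genes of this list with at least 20 UMIs in both sets together 6 were at least 2-fold higher in the *Oxt*-rich barcodes, as were 20.1% of all 3485 such genes, while 45.8% were at least 2-fold lower. The *Oxt*-rich set held 25054 UMIs of other genes against 1121131. A gene near the minimum can thus pass either limit on few UMIs or none there, and such shares depend on the sizes of the sets. Mitochondrial genes made up less of the *Oxt*-rich barcodes, at 38.4% against 58.9% of UMIs, and with mitochondrial UMIs left out of the totals the summed axon level differed 3.30-fold instead of 4.95-fold. The *Oxt*-rich barcodes were also deeper, with a median of 191 against 78 UMIs. At 251 to 1000 UMIs, where the medians were 393 and 371, the summed axon level was 1930 against 349 CPM in pool 1, and in pool 2 (17 and 741 barcodes) it was 876 against 247 CPM from 8 and 80 UMIs. Only 2 genes of the axon list had at least 20 UMIs there in pool 1, of which 2 were 2-fold higher. In pool 2 it was 1 gene, of which 0 were. Of all genes with at least 20 UMIs there, 22.1% were 2-fold higher and 29.6% 2-fold lower in pool 1, and 20% and 36.5% in pool 2. *Pomc* went the other way, at 4830 against 17619 CPM in pool 1 and 3175 against 29143 CPM in pool 2. Cells of the IL also expressed some of the axon list, with *Snap25* at 680 CPM, whereas *Stmn2*, *Kif5a*, *Gap43* and *Sncg* had 1 to 7 UMIs each in pituicytes and 0 to 12 in IL cells.

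**Figure D4:**
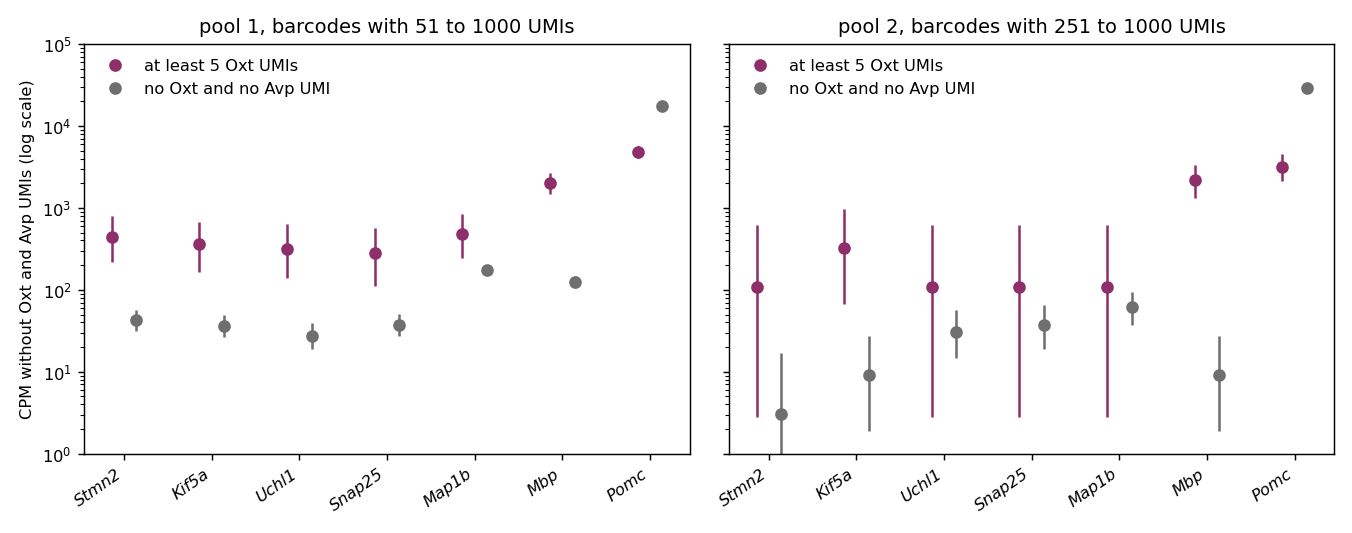
Level (CPM, log scale, *Oxt* and *Avp* UMIs left out of the totals) of 5 axon genes, *Mbp* and *Pomc* in barcodes with at least 5 *Oxt* UMIs (purple) and in barcodes with no *Oxt* and no *Avp* UMI (grey), with exact 95% Poisson intervals. The axon genes are higher in the *Oxt*-rich barcodes of pool 1, *Pomc* is lower in those of both pools, and in pool 2 4 of the 5 axon genes rest on 1 UMI each in the *Oxt*-rich set.

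In the barcodes with 1 to 50 UMIs some of these axon genes were above the kept cells of pool 1, but more of the list lay below them. The same count over all genes was not made. Mitochondrial genes took more of the UMIs in these barcodes, with *mt-Co3* at 135981 CPM against 25100 CPM in kept cells of pool 1. UMIs taken by such genes lower the share of the others, so a ratio below 1 does not by itself show depletion. *Stmn2* was 14.2-fold above the kept cells of pool 1 (192 UMIs against 10 in all kept cells of both pools). *Sncg* was 17.0-fold above them (46 against 2 in both pools) and *Gap43* 7.49-fold (81 against 17 in both pools). The ratios use the kept cells of pool 1 alone, whose counts are part of those given for both pools. These ratios thus rest on few UMIs of kept cells. *Kif5a* was 4.64-fold and *Uchl1* 1.48-fold above. *Nefm* was at 1.29 (7 UMIs). Below 1 were *Snap25*, *Syt1* and *Rbfox3*, all present in IL cells, at 0.241, 0.178 and 0.247. Also below 1 were *Map1b* (0.844), *Elavl3* (0.555), *Nefl* and *Nefh* (0.370 each), *Tubb3* (0.288), *Sv2a* (0.234), *Elavl4* (0.205) and *Syp* (0.140). *Nefl* and *Nefh* had only 3 and 1 UMIs in the barcodes with 1 to 50 UMIs. Presence in IL cells did not separate these groups, since *Uchl1*, *Kif5a* and *Gap43* had 67, 12 and 11 UMIs there. In pituicytes, beside the 263 *Oxt* UMIs, there were 3 UMIs of *Stmn2*, 7 of *Kif5a*, 1 of *Gap43* and 1 of *Sncg*.

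The other genes of the hormone pathway were mostly rare in kept cells. Of the 11 peptides and transmitter enzymes of magnocellular neurons examined none passed the filter on low counts: *Gal*, *Cck*, *Crh*, *Vip*, *Th*, *Nts* and *Trh* had no UMI in 1426382, which allows up to 2.10 CPM. *Apln*, the precursor of apelin, had 38 UMIs in pituicytes, and *Pdyn*, the prodynorphin gene that vasopressin neurons express, had 0 there and 9 in IL cells. Of the 8 regulators of these neurons *Sim1* and *Pou3f2* had no UMI and *Otp* had 1. Only *Rasd1* and *Nr4a1* were tested: *Nr4a1*, an immediate early transcription factor, was lower in pituicytes than in the other types (log2 fold change -2.83, SE 0.70, adjusted p = 0.000562) and *Rasd1* did not pass (1.58, SE 0.95).

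Of the 6 receptor and turnover genes 1 was tested. The oxytocin receptor *Oxtr* had 2 UMIs, *Avpr1b* 2, and *Avpr1a* and *Avpr2* none in all kept cells, so that the receptors of the hormones were not measurable at this depth. *Cd38*, which is needed for oxytocin release, had 24 UMIs and did not pass (log2 fold change 1.64, SE 0.90, adjusted p = 0.193).

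Of the 7 processing genes 5 were tested and 2 were higher in pituicytes than in the mean of the other types, beside 20.8% of all genes, with a median log2 fold change of 1.60 against 0.59. *Pam*, the enzyme that amidates both hormones, was higher (log2 fold change 2.20, SE 0.33, adjusted p = 8.56e-10), as was the carboxypeptidase *Cpe* (1.60, SE 0.52, adjusted p = 0.0123). This contrast averages log levels, so types near 0 weigh as much as the others. In CPM *Pam* was at 650 in pituicytes, 1104 in IL cells and 1569 in VLMC, with the other types lower. *Cpe* was at 135 in pituicytes, 821 in IL cells and 395 in epithelial-like cells, with the other types lower. *Pomc* too was called higher in this contrast (1.08), at 3565 CPM in pituicytes and 105425 in IL cells. The convertase *Pcsk2* was at 32.7 CPM in pituicytes and 4678 CPM in IL cells, and *Pcsk1* had no UMI in pituicytes. Of the 18 axon and terminal genes 7 were tested, and *Map1b* alone was higher (4.01, SE 0.49, adjusted p = 1.58e-14), with a median of 0.32. In CPM *Map1b* was at 421 in pituicytes, 472 in epithelial-like cells and 268 in IL cells. It had no UMI in T-cell like cells and VLMC, and the other types were lower than IL cells. In these 5 lists *Nr4a1* was the one gene called lower in pituicytes.

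The pattern of *Oxt* over the 14 sums of types and pools, on log2(CPM + 100), was most like that of *Timm8b* (Pearson r = 0.882), *Avp* (0.878), *Tmem184b* (0.876), *Spred1* (0.864) and *Sec11a* (0.814) among the 4510 genes. *Avp* was most like *Oxt* (0.878), *Tjp1* (0.851), *Mta3* (0.840), *Foxn2* (0.838) and *4931406P16Rik* (0.831). The 14 sums share 2 libraries and range from 8491 to 281271 UMIs, and over both pools each of these genes was at 83.9 CPM or more in vascular endothelia, the type with 13 cells. With 10 in place of 100 added 2 of the 5 genes remained for each, *Timm8b* and *Tmem184b* for *Oxt* and *Oxt* and *Foxn2* for *Avp*.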

How the data were processed

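The matrices the authors deposited hold raw UMI counts, one value for each gene in each barcode. They were made with bcl2fastq and Cell Ranger 2.0.0, run with 1500 forced cells on the mm10 reference. Per the submitters' processing notes STAR 2.5.1b and Seurat 2.3 were also used. The authors further deposited a table of mean UMI signal, scaled to 10000 per cell, in 11 clusters over both pools. Non-negative weights of each kept cell in these 11 means gave its cluster, with a weight of at least 0.981 in 1 cluster for every cell.

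Counts were summed per pool and type (14 sums of 8491 to 281271 UMIs) or pituicyte cluster (6 sums) and tested with edgeR 4.0.16 (quasi-likelihood, TMM, a minimum count of 5 and total of 15, all groups sharing 1 spread, Benjamini-Hochberg adjustment over all genes, threshold 0.05). All types in a pool derive from the same 5 mice, which pairs the sums by pool, and the pool differences of types had correlations of -0.035 to 0.148. The p-values rest on the spread between 2 pools as shared over all genes tested, and little on that of *Oxt* or *Avp* itself. The 14 sums left 7 residual degrees of freedom, and *Oxt* in VLMC was at 0 and 1192 CPM. The clusters were built from the same cells, so the cells were also clustered again without both genes (Seurat 5.3.0). Scrublet (scanpy 1.11.5) marked 5 doublets, which were kept. Intervals and the limit for a count of 0 (3 counts) cover counting error only. The fit was tested on simulated data.

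*Oxt* and *Avp*, the gene lists and the alternatives (DESeq2 1.42.0, library size alone, no filter, pool as a block, a mitochondrial limit of 10%, no doublets, without each pool) were chosen with earlier results of these data known. Named genes are the members of the lists, the 5 genes most like *Oxt* and *Avp*, and the 5 genes most above the kept cells in barcodes of 1 to 50 UMIs.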

Additional observations from a re-analysis of the deposited data

How the results depend on the processing

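*Oxt* and *Avp* were higher in pituicytes in all 27 alternative fits of the 3 contrasts, of which 23 called *Oxt* and 18 called *Avp*. The 27 include an alternative without VLMC and vascular endothelia, which was not planned. It leaves out the types whose mean CPM lay above that of pituicytes, VLMC for *Oxt* and both for *Avp*, so its contrast with the other types covers fewer types. *Oxt* and *Avp* were also higher in all 6 comparisons without a pool (edgeR log2 fold changes with no test). With DESeq2 the log2 fold changes against the mean of the other types, IL cells and macrophage/microglia were 1.62, 2.40 and 2.21 for *Oxt* (adjusted p = 0.104, 0.0602 and 0.0638) and 1.16, 1.98 and 2.50 for *Avp* (0.526, 0.423 and 0.212). With a mitochondrial limit of 10%, which left 11 and 38 pituicytes, they were 1.202 for *Oxt* against the other types, and 0.47, 1.296 and 0.80 for *Avp* (adjusted p = 0.823, 0.579 and 0.713), whose test among the 7 types gave 0.0545. *Avp* also missed the threshold with library size alone against the other types (1.08, adjusted p = 0.122), against IL cells once cells were clustered again without both genes, with 76 of the 148 IL cells kept as such (0.67, 0.483), and against macrophage/microglia without the cell with most hormone UMIs of each type and pool (1.87, 0.0970), the last an alternative chosen after seeing the data. The cause was not tested.

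With the pool as a block, by which the sums are paired, no call of either gene changed (*Oxt* 1.89 and *Avp* 1.35 against the other types, adjusted p = 4.14e-11 and 0.0383), and 17 instead of 5 genes differed among the pituicyte clusters. Without a pool the log2 fold changes lay between 1.54 and 3.51 for *Oxt* against the other types, 2.22 and 2.55 against IL cells and 1.74 and 2.41 against macrophage/microglia. For *Avp* they were between 1.21 and 2.78, 1.74 and 2.25, and 1.49 and 3.04. *Avp* in pituicytes b against a and c turned from -1.01 to 0.13 without pool 1, and was -2.49 without pool 2.

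Against barcodes with 1 to 10 or 51 to 100 UMIs the ratio to kept cells was 14.4 or 18.8 for *Oxt* and 15.1 or 17.0 for *Avp*. Unthinned shares over both pools were 46.4% (*Oxt*) and 15.3% (*Avp*) in pituicytes and 16.8% (*Oxt*) in immune cells. The thinned *Avp* share of immune cells was between 0% and 2.86% without a pool. Without 1 cell all *Oxt* and *Avp* UMIs of VLMC were *Oxt* (100%). Genes called against the other types numbered 1002, against 350 with DESeq2, 2278 without the filter, 235 at the 10% limit and 1528 after clustering again. Against IL cells they numbered 932, 254 with DESeq2, 1451 without the filter and 294 at the 10% limit, against macrophage/microglia 1385, 667 with DESeq2 and 576 at the 10% limit, and among the types 2460, 1494 with DESeq2 and 1216 at the 10% limit. Among the pituicyte clusters 5 became 1 with DESeq2, 16 without the filter and 3 without the cells with most hormone UMIs. The 10% limit could not be fitted there, since no pituicytes b of pool 1 were left. With 8491 UMIs in the smallest sum, the levels of VLMC and vascular endothelia are the least certain.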

Other observations

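The barcode of pool 1 with most *Oxt* held 106 *Oxt* UMIs of its 523, no *Avp* UMI, and 3 UMIs of *Stmn2* and 4 of *Uchl1*, the most of either gene in any *Oxt*-rich barcode. The barcode with most *Avp* held 25 *Avp* UMIs of its 267 and no *Oxt*. Among the barcodes of pool 2 with 251 to 1000 UMIs, a single barcode of 843 UMIs held the most of both, 21 of *Oxt* and 11 of *Avp*. A kept cell of that pool held more *Oxt*, with 26 UMIs.

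*Mbp*, the myelin basic protein of oligodendrocytes, was at 1996 CPM in the *Oxt*-rich barcodes of pool 1 with 51 to 1000 UMIs, against 126 CPM in those with neither hormone. Its 50 UMIs lay in 5 of the 107 barcodes, with 31 in 1 of them. In the *Oxt*-rich barcodes of pool 2 it was at 2189 CPM (20 UMIs) against 9.24 CPM (3 UMIs in 741 barcodes).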
